A study of Mus musculus with 126 samples.

Results

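Brd2, Brd3 and Brdt are BET genes, which encode readers of acetylated histones, and their RNA was followed in mouse embryonic stem cells exposed to a histone deacetylase inhibitor. The rows of the deposited read count table with these 3 symbols were taken, which makes 3 of 23420 genes. All 3 passed the filter on low counts and were among the 15822 genes tested. For Brdt, the counts in the DMSO libraries (24 to 35) already lay above the filter's minimum of 10, so the gene did not enter through the treated libraries alone.

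The 8 RNA-seq libraries fall into 4 groups of 2. J1 wild type cells, a mouse embryonic stem cell line, and J1 cells that are Dnmt1-/-, Dnmt3a-/-, Dnmt3b-/- (called TKO in the labels) were each exposed for 36 h, either to 5 ng/µl of the deacetylase inhibitor Trichostatin A (TSA), the concentration the labels give, or to 0.0033% DMSO. All groups were grown on gelatin with serum and LIF. The TKO cells lack the DNA methyltransferases in all their libraries, with or without TSA, and whether they are 1 clone is not given in the sources used here.

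BET proteins carry tandem bromodomains, which bind acetylated lysines on histone tails, and an extraterminal (ET) domain, which binds chromatin regulators. Through these contacts they bring transcription regulators, including the elongation kinase P-TEFb, to acetylated chromatin. Brd2 and Brd3 are transcribed in most tissues, whereas Brdt is the testis member of the family and is known for its role in spermatocytes and spermatids. TSA blocks class I and II histone deacetylases and so raises the histone acetylation that these proteins read.

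In the deposited table Brd2 lies at chr17:34112019-34122607 on the minus strand (15 exons, 5025 exonic bases). Brd3 lies at chr2:27445581-27475673 on the minus strand (14 exons, 5565 exonic bases). Brdt lies at chr5:107331194-107387058 on the plus strand (19 exons, 5025 exonic bases). These are mm10 coordinates, and no exonic base of the 3 genes is shared with the exons of any other gene in the table, so their counts do not depend on how overlapping genes were resolved.

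The promoters of Brd2 and Brdt are shown because the study concerns a DNA methylation mutant and the RNA of these genes behaved differently under TSA. Both are the 250 bases before the gene start on the gene's own strand, from RefSeq (GRCm38.p6, the mm10 build), and capitals mark CpG dinucleotides. The Brd2 window is chr17:34122608-34122857 (minus strand) and the Brdt window is chr5:107330944-107331193 (plus strand). RefSeq lists 3 starts for Brd2, of which the one used is the deposited start, and its Brd3 start lies 275 bases from the deposited one.
Brd2: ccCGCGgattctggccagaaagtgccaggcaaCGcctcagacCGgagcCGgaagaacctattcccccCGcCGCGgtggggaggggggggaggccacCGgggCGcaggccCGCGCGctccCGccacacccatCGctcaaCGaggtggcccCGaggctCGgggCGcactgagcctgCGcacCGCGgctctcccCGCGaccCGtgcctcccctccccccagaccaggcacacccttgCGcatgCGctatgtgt
Brdt: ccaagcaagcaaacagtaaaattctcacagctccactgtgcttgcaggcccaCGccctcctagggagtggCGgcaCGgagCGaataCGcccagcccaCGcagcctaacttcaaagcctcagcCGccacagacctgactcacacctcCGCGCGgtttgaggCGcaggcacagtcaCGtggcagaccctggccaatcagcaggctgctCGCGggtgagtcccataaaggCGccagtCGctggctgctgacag
The Brd2 window holds 27 CpGs with 73.6% G+C, and the Brdt window holds 16 CpGs with 62.4% G+C. The Brd3 window, which is not shown because 72 of its bases lie in Brd3's own deposited exons, holds 37 CpGs with 73.2% G+C. Among 32841 RefSeq promoters of this length the median was 6 CpGs and 52.4% G+C, and the Brdt window had more CpGs than 74.6% of them, against 91.4% for Brd2 and 97.8% for Brd3. All 3 genes therefore start in sequence richer in CpG than most mouse promoters, Brdt least so.

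The windows were also searched on both strands for short motifs of the 5 transcription factors that the series assayed by ChIP-seq in samples not analysed here. The Brd2 window holds TGCGCA, the core of the NRF1 motif, at 78 and 18 bases before the start, and CCGGAAG, the GABPA motif, at 203 bases before it. The Brdt window holds CACGTG, the E-box bound by MAX, at 78 bases before the start. In the Brd3 window GGGCGG, the SP1 box, begins 146 bases before the start. Of the 32841 promoters, TGCGCA occurred in 6.43%, CCGGAAG in 6.91%, CACGTG in 6.02% and GGGCGG in 32.7%. ATGGCGG, the YY1 motif, was in none of the 3 windows and in 2.21% of promoters, and none of the motifs found overlaps another. A match describes the letters of the window and not binding.

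The libraries held 13280631 to 15542527 counts assigned to genes. After scaling, replicates varied by 10.3% (the common biological coefficient of variation). Residual reads of the targeted genes were lower in the TKO libraries, at 123 to 134 CPM (counts scaled to the TMM-normalised library size) against 360 to 464 in the wild type libraries for Dnmt1, 25.9 to 39.1 against 152 to 236 for Dnmt3a, and 43.6 to 76.1 against 343 to 595 for Dnmt3b. All 8 stem cell marker genes were detected in every library, and their summed level was 3172 to 3631 CPM with DMSO and 1675 to 1873 CPM with TSA in wild type, against 4107 to 4488 and 1620 to 1982 CPM in TKO. With TSA 7 of the 8 fell in each genotype, where 25.9% of all tested genes fell in wild type and 27.9% in TKO. With total counts alone, without TMM factors, 6 of the 8 fell in each. The gene not called with TMM was Sox2 in wild type (log2 fold change -0.31) and Nanog in TKO (-0.27). In bulk RNA, fewer cells of a type and less RNA per cell cannot be told apart.

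Brdt was the BET gene that TSA raised, and it rose in both genotypes. In wild type cells it was at 1.71 and 2.11 CPM with DMSO and at 17.0 and 26.8 CPM with TSA. In TKO cells it was at 2.39 and 2.33 CPM with DMSO and at 23.1 and 36.0 CPM with TSA. Every TSA library was far above every DMSO library, while the replicates within each TSA group stood apart from each other, replicate 2 being 1.57-fold higher than replicate 1 in wild type and 1.56-fold higher in TKO. In edgeR's quasi-likelihood test with Benjamini-Hochberg adjustment over all tested genes, the log2 fold change in wild type was 3.52 ± 0.32 (SE; 11.5-fold, 95% interval 2.83 to 4.21, adjusted p = 2.04e-05). In TKO it was 3.64 ± 0.30 (12.5-fold, interval 2.99 to 4.30, adjusted p = 5.20e-06).

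Brd2, the most abundant of the 3, fell in wild type cells with TMM scaling. Its level was 352 and 334 CPM with DMSO and 261 and 258 CPM with TSA. Both treated libraries were below both controls, and the log2 fold change was -0.40 ± 0.10 (SE; interval -0.62 to -0.18, adjusted p = 0.00666 by edgeR). This call depends on the scaling: with upper quartile factors the change was -0.25 (adjusted p = 0.0602) and with total counts alone -0.20 (adjusted p = 0.129). Those scalings moved the median of all tested genes to 0.16 and 0.22, from 0.01 with TMM. Relative to that median Brd2 was at -0.41 with each of the 4 scalings run. A change of scaling shifts all genes of a comparison by nearly the same amount, so that value could not test the fall. In TKO cells Brd2 was at 308 and 324 CPM with DMSO and at 289 and 351 CPM with TSA. There the treated libraries enclosed the controls, and the change was 0.02 ± 0.10 (interval -0.20 to 0.24, adjusted p = 0.893 by edgeR).

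Brd3 had nearly the same level in all conditions. In wild type it was at 72.1 and 72.9 CPM with DMSO and at 65.6 and 72.4 CPM with TSA. In TKO it was at 69.7 and 74.7 CPM with DMSO and at 68.1 and 71.2 CPM with TSA. Its range over the 8 libraries was thus 65.6 to 74.7 CPM, and the TSA and DMSO libraries overlapped in both genotypes. The log2 fold change with TSA was -0.07 ± 0.10 in wild type (SE; interval -0.28 to 0.14, adjusted p = 0.552 by edgeR) and -0.05 ± 0.10 in TKO (interval -0.26 to 0.16, adjusted p = 0.660).

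**Figure D1:**
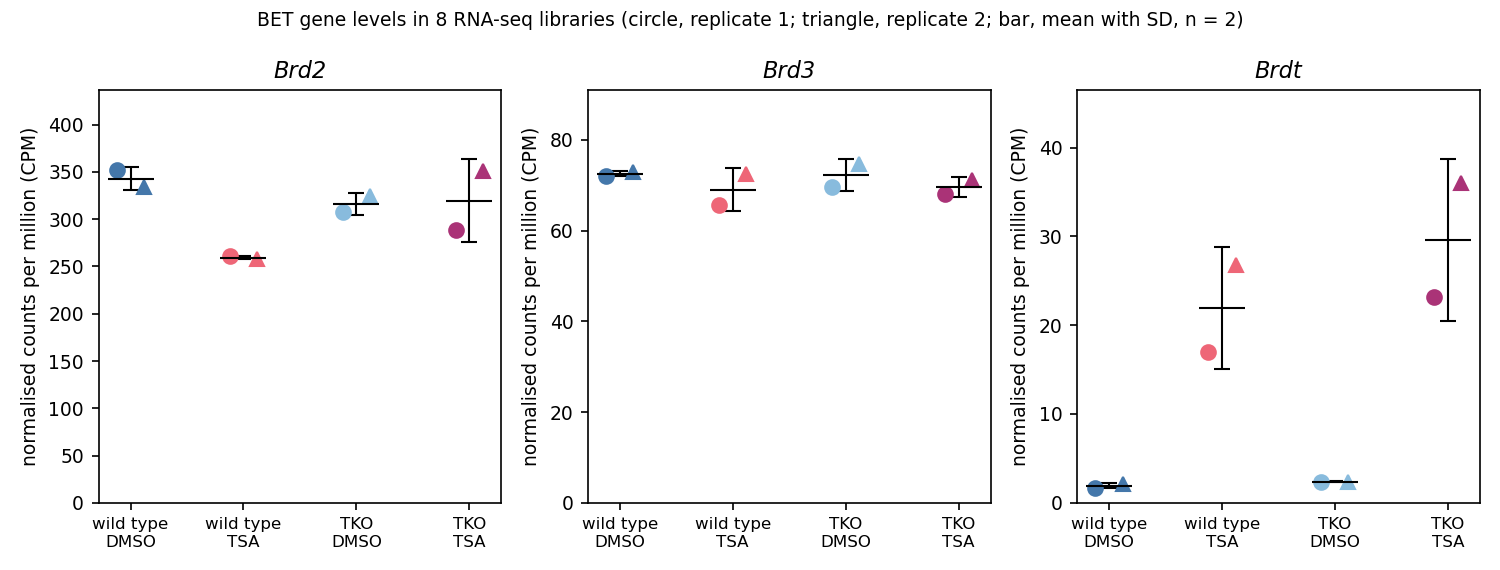
TMM-normalised CPM (linear axes from 0, one panel per gene) in the 8 libraries, with the mean and SD of 2 libraries per group. Brdt lies at 1.71 to 2.39 CPM in the 4 DMSO libraries and at 17.0 to 36.0 CPM in the 4 TSA libraries, Brd2 is lowest in wild type TSA, and Brd3 stays between 65.6 and 74.7 CPM.

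Set against the background, 2 of the 3 genes were called with TSA in wild type, where 52.8% of all tested genes were (27% higher and 25.9% lower). In TKO 1 of 3 was called, where 58.7% of tested genes were (30.8% higher and 27.9% lower). A call alone is therefore no mark of these genes under TSA, and the size of the change says more. Brdt's log2 fold change was exceeded by 260 of the 15822 tested genes in wild type (1.64%) and by 347 in TKO (2.19%).

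Loss of the methyltransferases alone moved none of the 3 genes past the threshold. In the DMSO libraries, TKO against wild type, 0 of 3 were called by edgeR and 0 by DESeq2, none had an unadjusted p under 0.05, and 20.4% of tested genes were called (9.62% higher and 10.7% lower). Brd2 changed by -0.12 ± 0.10 (SE; interval -0.34 to 0.10), Brd3 by -0.01 (interval -0.22 to 0.21) and Brdt by 0.31 ± 0.40 (interval -0.56 to 1.18). Brdt was slightly higher in both TKO libraries, at 32 and 35 counts against 24 and 26, a difference too small for this depth to resolve. Its upper bound lies below the lower bound of the TSA effect in either genotype.

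Among TSA libraries, TKO against wild type, 0 of 3 were called by edgeR and 0 by DESeq2, where 18.4% of tested genes were (10% higher and 8.38% lower). The gene with an unadjusted p under 0.05 (1 of 3) was Brd2 (adjusted p = 0.0609 by edgeR), which was above wild type in both TKO libraries by a log2 difference of 0.30 ± 0.10 (SE; interval 0.08 to 0.52). Leaving out 1 library at a time, 1 of the 8 fits passed the threshold: the difference was 0.44 (adjusted p = 0.0216) without TKO TSA replicate 1, and 0.16 (adjusted p = 0.412) without TKO TSA replicate 2. Brdt differed by 0.44 ± 0.24 (interval -0.08 to 0.96, adjusted p = 0.224), with overlapping groups, and Brd3 by 0.01 (interval -0.20 to 0.23). The Brdt value was 0.14 without wild type TSA replicate 1 and 0.80 without replicate 2, and 0.72 and 0.08 without TKO TSA replicates 1 and 2, none of them past the threshold by edgeR.

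The cells with both changes, TKO with TSA, were also set against wild type with DMSO. Here 1 of 3 genes was called, where 61.9% of tested genes were (31.7% higher and 30.2% lower). Brdt was 15.5-fold higher (log2 3.96 ± 0.31, interval 3.27 to 4.64, adjusted p = 3.33e-06 by edgeR), while Brd2 was at -0.10 (interval -0.32 to 0.12) and Brd3 at -0.06 (interval -0.27 to 0.15). This comparison shares its control libraries with the wild type TSA comparison and its treated libraries with the TKO one.

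Whether the TSA effect differs between genotypes was tested by subtracting the wild type effect from the TKO effect. By edgeR 0 of 3 genes were called and by DESeq2 0, where edgeR called 1.35% of tested genes (0.879% higher and 0.468% lower), and 1 gene had an unadjusted p under 0.05. That gene was Brd2, whose effect differed by 0.42 ± 0.14 (SE; interval 0.10 to 0.73, adjusted p = 0.200 by edgeR). The fall of Brd2 in wild type is therefore not shown to be particular to that genotype. For Brdt the difference was 0.13 ± 0.47 (interval -0.90 to 1.15), with 24 to 35 counts per DMSO library, and for Brd3 it was 0.02 (interval -0.28 to 0.32).

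**Figure D2:**
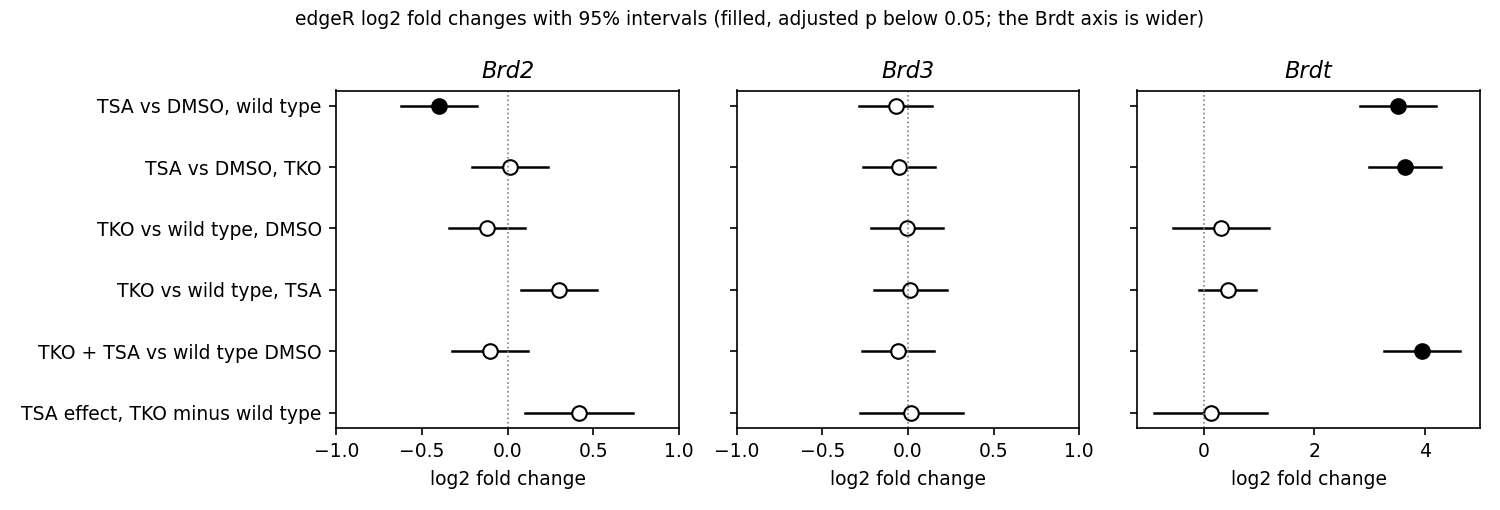
Log2 fold changes from edgeR (horizontal axes, wider for Brdt) with 95% intervals for the 6 comparisons; filled points have an adjusted p below 0.05. Filled points are Brdt in the 3 comparisons that set TSA against DMSO, at 3.52, 3.64 and 3.96, and Brd2 with TSA in wild type, at -0.40.

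Levels can be compared between genes only per exon length, and were expressed for that as normalised CPM per kilobase (RPKM, from the deposited exon lengths). The order was Brd2, then Brd3, then Brdt in each of the 8 libraries. Brd2 was at 68.2 ± 2.46 RPKM with DMSO and 51.6 ± 0.375 with TSA in wild type, and at 62.9 ± 2.31 and 63.6 ± 8.72 RPKM in TKO (mean ± SD, n = 2). Brd3 was at 11.8 to 13.4 RPKM over the libraries. Brdt was at 0.380 ± 0.0555 and 4.36 ± 1.37 RPKM in wild type (DMSO and TSA) and at 0.470 ± 0.00931 and 5.89 ± 1.81 RPKM in TKO. No gene's range in a condition reached that of its neighbour in the order.

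Among all tested genes on this scale, Brd2 in wild type was above 90.8% of genes with DMSO and 89.6% with TSA, and Brd3 above 60.6% and 60.5%. Brdt moved from above 13.1% of tested genes to above 38.2% in wild type, and from 14.2% to 43.2% in TKO. With TSA, Brdt was thus transcribed at a modest level rather than a high one.

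The share of Brdt in the summed RPKM of the 3 genes was 0.409% and 0.524% with DMSO and 5.05% and 7.64% with TSA in wild type. In TKO it was 0.641% and 0.591% with DMSO and 6.19% and 7.99% with TSA. The Brdt shares of TSA and DMSO libraries did not overlap. Brd2 made up 83.6% ± 0.656 of the sum with DMSO and 75.5% ± 2.60 with TSA in wild type, against 82.4% ± 0.144 and 77.5% ± 0.301 in TKO (mean ± SD, n = 2), and so was the main transcript in every condition. The ratio of Brd3 to Brdt RPKM went from 34.6 ± 4.79 to 2.96 ± 0.733 in wild type and from 27.6 ± 1.90 to 2.22 ± 0.619 in TKO. The summed level itself was 81.6 ± 2.31 RPKM with DMSO and 68.4 ± 1.86 with TSA in wild type, and 76.3 ± 2.94 and 82.0 ± 10.9 RPKM in TKO.

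**Figure D3:**
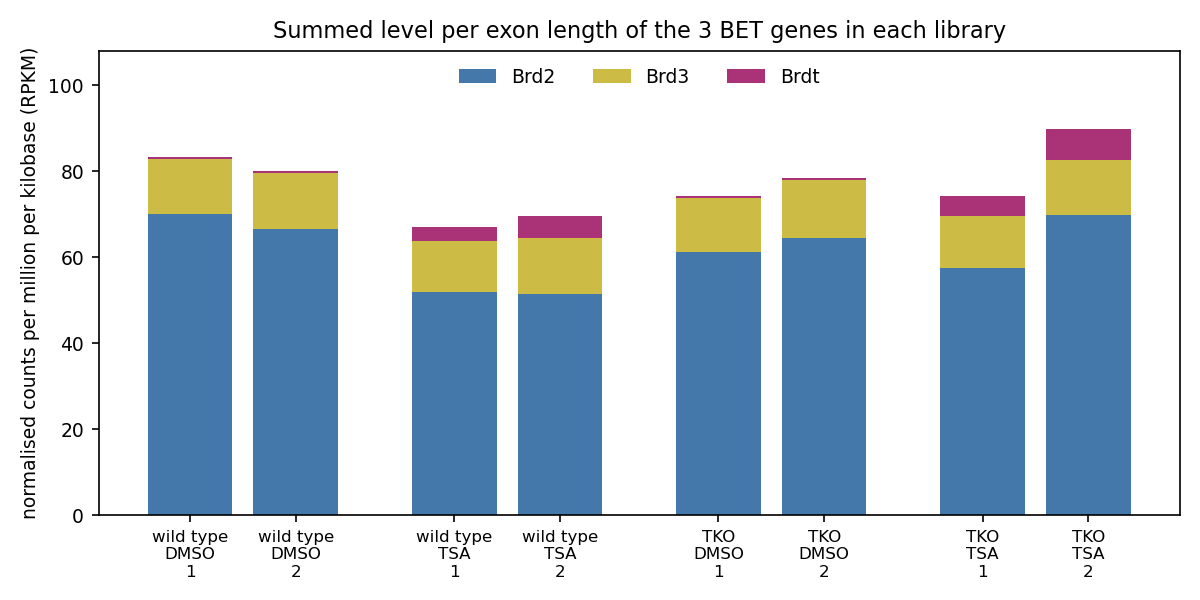
Stacked RPKM of Brd2, Brd3 and Brdt in each library (linear axis from 0; one bar per library, 2 per group). Brd2 fills most of every bar, and the Brdt segment is 0.409% to 0.641% of the bar with DMSO and 5.05% to 7.99% with TSA.

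Because Brdt is a testis gene, other genes of spermatocytes and spermatids were read beside it. Of 24 listed genes 23 were in the table and 13 were tested. With TSA 11 rose and 0 fell in wild type (median log2 fold change 1.67, against 0.01 for all tested genes), and 10 rose and 0 fell in TKO (median 1.05, against 0.04). Of all tested genes 27% rose in wild type and 30.8% in TKO. Hspa1l, which rose in wild type, lay at or below 0.162 CPM in the DMSO libraries. It passed the filter on low counts only through its TSA libraries. Taf7l, a germ cell variant of a TFIID subunit, was at 4.99 and 5.83 CPM with DMSO and 34.4 and 37.9 CPM with TSA in wild type, a log2 change of 2.74, and changed by 2.15 in TKO. Hspa2, a chaperone of spermatocytes, changed by 1.77 and 1.90, and Zpbp, an acrosomal protein gene, by 1.98 and 1.77. The 10 untested genes, which include the protamine genes Prm1 and Prm2 and the transition protein genes Tnp1 and Tnp2, had at most 5 counts in any library. Those genes were thus at or near the detection limit of 3 counts, which is 0.183 to 0.243 CPM.

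Part of the spermatogenic list also differed between genotypes without TSA. In TKO against wild type with DMSO 5 of its 13 tested genes were higher and 0 lower, namely Taf7l, Tex101, Ldhc, Spag6 and Hist1h1t, where 9.62% of all tested genes were higher and 10.7% lower. Brdt's own change there was 0.31 and was not called; the difference between Brdt and these genes was not tested. The summed level of 8 germ cell marker genes was 78.8 to 90.9 CPM with DMSO and 111 to 147 CPM with TSA in wild type, against 190 to 216 and 321 to 325 CPM in TKO. In TKO most of that sum was Dazl, an RNA-binding protein gene of germ cells, with means of 141 CPM (DMSO) and 263 CPM (TSA). Wild type means were 10.4 and 42.0 CPM, and Dazl was called higher in TKO with DMSO (log2 3.77) and TSA (2.65). With TSA 2 listed genes were higher in TKO than in wild type and 2 lower, against 10% and 8.38% of all tested genes. The 2 lower were Ddx4 (-1.34) and Nanos3 (-1.82), so the sum did not speak for the list. Nanos2 had reads only in wild type TSA replicate 2 (0.272 CPM), near the detection limit, and was not tested. Of that list 3 genes rose and 1 fell with TSA in wild type, and 2 rose and 1, Ddx4 (-1.25), fell in TKO. Of all tested genes 27% rose and 25.9% fell with TSA in wild type, and 30.8% rose and 27.9% fell in TKO. These shares are also the background for the marker lists that follow. The summed fibroblast markers also moved with Brdt, from 39.5 to 46.8 CPM up to 87.7 to 104 in wild type and from 21.3 to 21.6 CPM up to 49.6 to 74.1 in TKO, with 5 of 8 genes higher and 1 lower in wild type and 8 higher in TKO. The endoderm markers summed went from 12.8 to 14.6 CPM up to 17.1 to 19.6 in wild type, and from 26.1 to 28.8 CPM up to 36.4 to 40.9 in TKO, but only Sox17 of the 7 was called in wild type, and only Sox17 and Afp in TKO. The neural markers summed went from 341 to 423 CPM down to 178 to 211 in wild type, and from 299 to 331 CPM down to 163 to 169 in TKO. Of the 6 neural genes 4 fell in wild type and 3 in TKO, while Map2 rose in both (1.05 and 0.57) and Nes was not called in TKO (0.16). The fibroblast markers Lum and Postn and the endoderm marker Afp lay at or below 0.727 CPM in the DMSO libraries. They passed the filter on low counts only through their TSA libraries. The part of these cell type markers in the Brdt result was not tested.

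Among the genes of other bromodomain proteins more fell than rose with TSA. Of 34 tested, 22 fell and 2 rose in wild type (median -0.45) and 20 fell and 5 rose in TKO (median -0.40). Of all tested genes 25.9% fell and 27% rose in wild type, and 27.9% fell and 30.8% rose in TKO, with medians of 0.01 and 0.04. With total counts alone 15 fell and 3 rose, and 17 fell and 7 rose. Kat2b, an acetyltransferase with a bromodomain, was at 97.6 and 127 CPM with DMSO and 33.1 and 31.0 with TSA in wild type, a change of -1.81, and changed by -2.19 in TKO. Trim24 (-1.11) and the acetyltransferase gene Crebbp (-1.04 in wild type, -1.02 in TKO) also fell. Smarca2, a catalytic SWI/SNF subunit, rose in both genotypes (1.58 and 1.10), as did Sp140, an immune cell reader that stayed at or below 3.67 CPM in every library. In TKO Brd1, Baz1a and Zmynd8 also rose. Zmynd8 changed by 0.42 there but was called lower in wild type (-0.24, adjusted p = 0.0433 by edgeR). Sp140 lay at or below 0.567 CPM with DMSO and passed the filter on low counts only through its TSA libraries.

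YEATS domain genes form another family of acetyl-lysine readers. Of 4 tested, Mllt3 rose in both genotypes (1.10 and 1.48) and none fell in wild type, while Yeats4 fell in TKO (-0.55). Of all tested genes 27% rose and 25.9% fell in wild type, and 30.8% rose and 27.9% fell in TKO. With 4 genes, such counts do not set the family apart.

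Genes of the P-TEFb kinase and its 7SK inhibitor complex were read because BET proteins recruit this kinase. The list also holds elongation and pausing factor genes of the Aff, Ell, Supt and Nelf families. Of 19 tested, 0 rose and 9 fell in wild type (median -0.25), and 5 rose and 9 fell in TKO (median -0.08). Called in either direction were thus 9 of 19 genes in wild type and 14 of 19 in TKO, where 52.8% and 58.7% of all tested genes were. With total counts alone 3 rose and 3 fell, and 5 rose and 4 fell. The kinase gene Cdk9 (-0.14 in wild type and -0.03 in TKO) and the cyclin gene Ccnt1 (-0.15 and -0.05) were not called in either genotype. Mepce, the 7SK capping enzyme, fell in both (-1.06 and -0.92), as did Aff4, a scaffold of the super elongation complex (-0.83 and -0.86), and Ccnt2, a cyclin of P-TEFb (-0.74 and -0.62). The others that fell in wild type were Hexim2, Ell, Ell2, Supt6, Nelfb and Nelfcd. Hexim1, the kinase inhibitor, had means of 94.5 CPM with DMSO and 87.5 CPM with TSA in wild type (change -0.11, not called), and rose in TKO from 102 to 135 CPM (0.41). In TKO Nelfa, a subunit of the pausing factor NELF, rose by 1.08, and Ell3, Aff1 and Supt5 also rose.

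The ET domain partners bind BET proteins directly, and in wild type most of them fell with TMM scaling. Of 6 tested, 5 fell and 1 rose in wild type (median -0.44) and 2 fell in TKO (median -0.19), where 25.9% and 27.9% of all tested genes fell. With total counts alone 2 fell and 1 rose in wild type, and 1 fell and 1 rose in TKO. The remodeller gene Chd7 fell most, by -0.76 in wild type and -0.42 in TKO. Jmjd6 was at -0.47 in wild type, and the gene that rose there was Whsc1l1 (0.25).

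**Figure D4:**
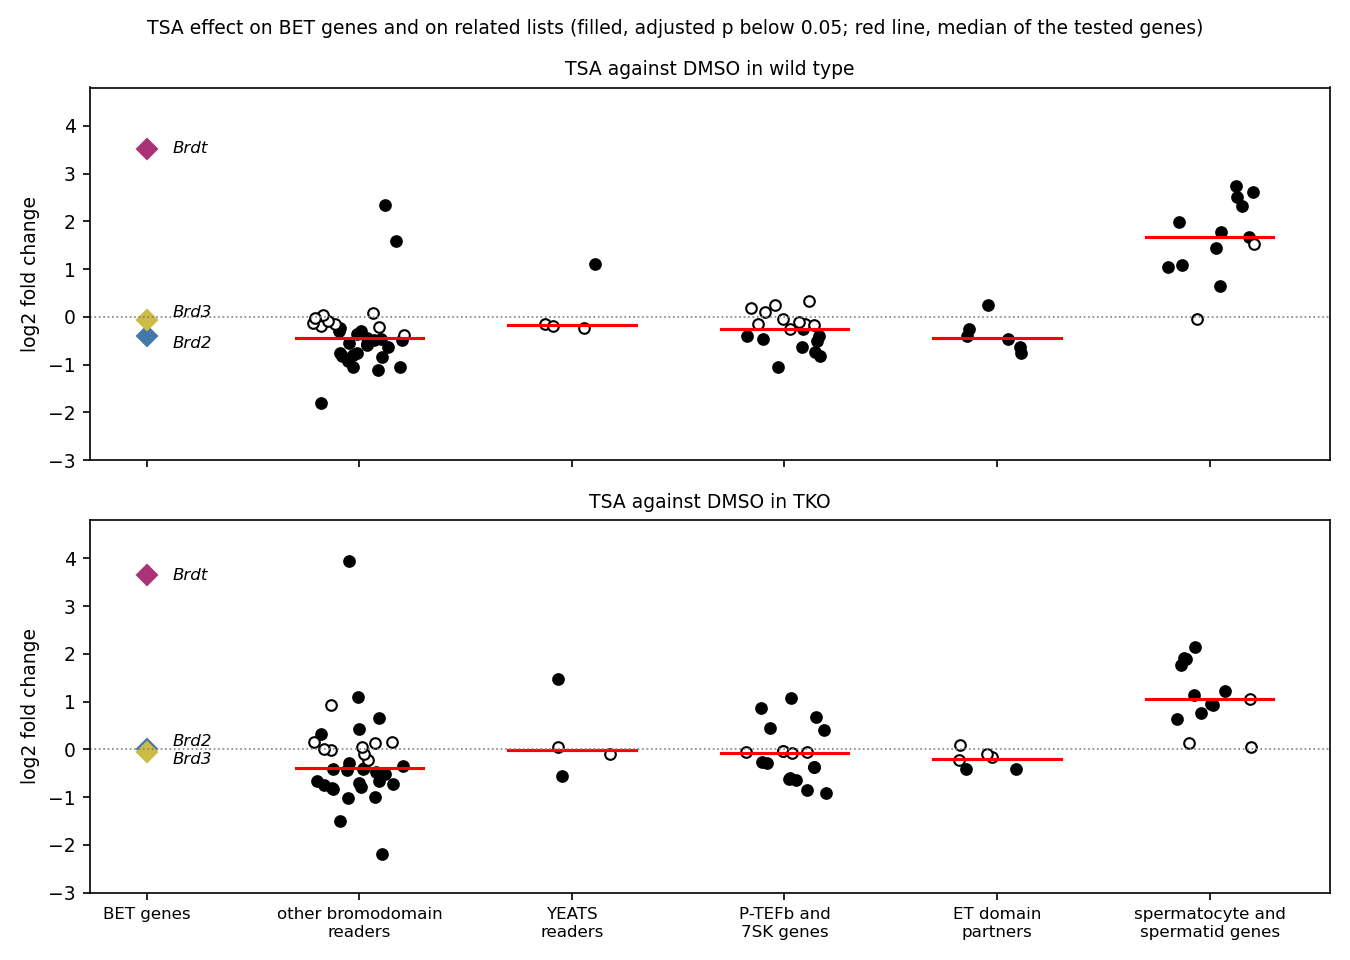
Log2 fold change with TSA (vertical axis) of the 3 BET genes and of 5 related lists, in wild type (top) and TKO (bottom); filled points have an adjusted p below 0.05 and red lines mark the median of tested genes. Brdt lies at 3.52 and 3.64, and the list of spermatocyte and spermatid genes has medians of 1.67 and 1.05 while the other bromodomain readers have medians of -0.45 and -0.40.

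The genes within 200 kb of each BET gene were read beside it. Around Brdt 6 of 7 neighbours were tested, of which 5 rose and 0 fell in wild type (median 1.11) and 4 rose and 0 fell in TKO (median 0.93), where 27% and 30.8% of all tested genes rose. The nearest, Ephx4, an epoxide hydrolase family gene, changed by 1.13 in wild type and 1.02 in TKO, and Tgfbr3, the gene for betaglycan, by 1.08 and 1.40. A830010M20Rik changed by 1.16 and 0.84 and 1700028K03Rik by 2.60 and 2.09, while Btbd8 rose in wild type (1.03) and was not called in TKO (0.25). The gene 1700028K03Rik lay at 0.214 to 0.945 CPM in the DMSO libraries and passed the filter on low counts only through its TSA libraries. Its rise was thus a condition of its being tested. Glmn was not called in either (-0.18 and 0.24). The change of Brdt itself (3.52 and 3.64) was larger than that of each tested neighbour. Between genotypes 0 of the 6 neighbours were called by edgeR, where 20.4% of all tested genes were with DMSO and 18.4% with TSA. With 6 genes, such a count does not set the locus apart.

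Brd2 lies in the class II region of the major histocompatibility complex, where 27 of 31 neighbours were tested. With TSA 11 rose and 10 fell in wild type (median -0.07), and 10 rose and 12 fell in TKO (median -0.27), where 52.8% and 58.7% of all tested genes were called. H2-Oa and H2-Aa, which rose in both, lay at or below 0.873 CPM in the DMSO libraries. They passed the filter on low counts only through their TSA libraries. H2-DMa, which encodes a chain of the peptide-loading factor for class II molecules, starts 225 bases from the start of Brd2 and runs the other way. Its level was 3.00 and 3.24 CPM with DMSO and 8.55 and 8.22 with TSA in wild type, and 4.10 and 4.65 CPM against 7.17 and 6.21 in TKO. The rise of H2-DMa by 1.43 (adjusted p = 0.000320 by edgeR) in wild type was thus opposite to the fall of Brd2 by 0.40. In the Brd2 window shown above, the 26 bases farthest from the start of Brd2 lie in the first exon of H2-DMa. In TKO H2-DMa rose by 0.61 (adjusted p = 0.0252) while Brd2 was at 0.02. The class II antigen-presentation gene H2-Ab1 rose by 2.82 and 2.03, and Tap2, a peptide transporter gene, by 1.25 and 1.33, whereas Psmb8, an immunoproteasome subunit gene, fell (-0.91 and -1.78). Histocompatibility genes have similar copies, and how reads shared by copies were counted is not given, so their counts are uncertain.

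Around Brd3 3 neighbours were tested and 0 were called with TSA in wild type, none of them with an adjusted p below 0.0528 by edgeR. In TKO 1 rose, Vav2, a guanine nucleotide exchange factor gene, by 0.85. Over all tested genes 52.8% were called with TSA in wild type and 58.7% in TKO, so counts among 3 genes do not set the locus apart. Wdr5, a core subunit of histone H3 lysine 4 methyltransferase complexes, was called in neither genotype.

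**Figure D5:**
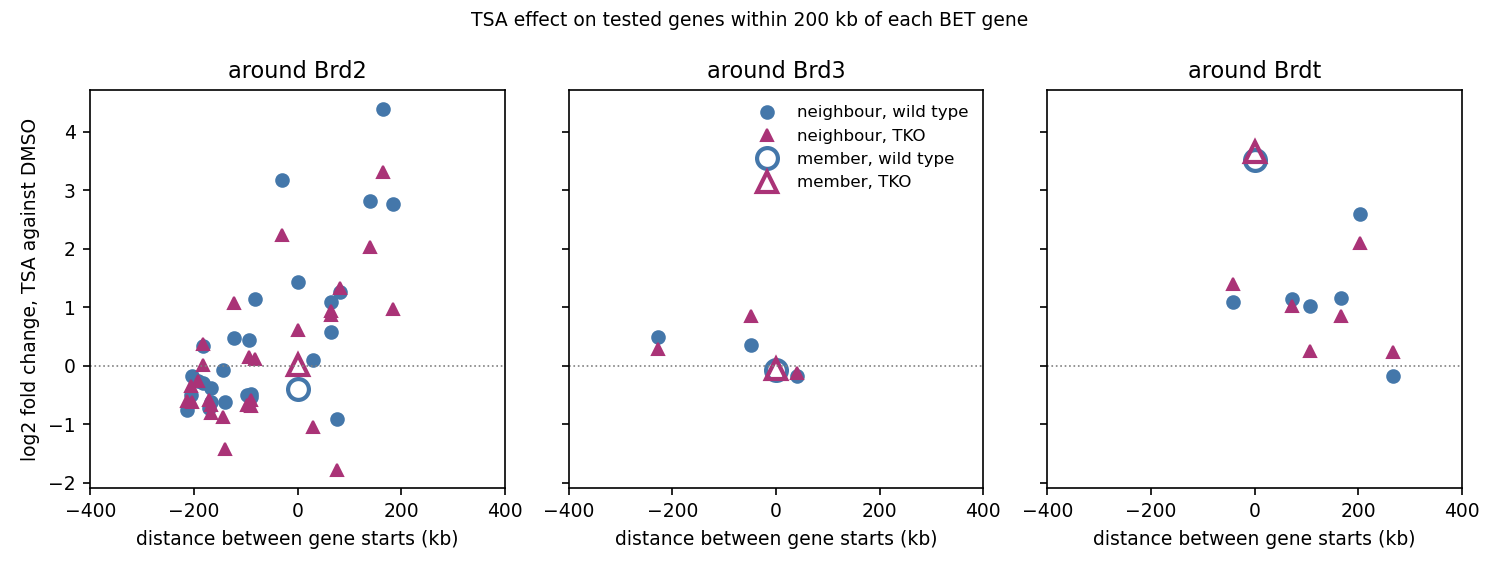
Log2 fold change with TSA (vertical axis) of each tested gene within 200 kb against the distance between its start and that of the BET gene (horizontal axis, kb), in wild type (circles) and TKO (triangles); large open symbols are the BET genes. Around Brdt 5 of 6 neighbours rose in wild type, with Brdt highest at 3.52, while around Brd2 11 rose and 10 fell.

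The genes whose log2 CPM followed each member most closely over the 8 libraries were found among the 14420 genes whose mean reached 1 CPM. The points share libraries and the TSA contrast, so the correlations are descriptions. For Brdt they were Cpm (carboxypeptidase M), Pdcd1 (the receptor PD-1) and Pclo (a presynaptic scaffold), with Pearson's r of 0.999, 0.999 and 0.998. Pdcd1 lay at or below 0.205 CPM in the DMSO libraries and passed the filter on low counts only through its TSA libraries. Its rise was thus a condition of its being compared. In wild type the Cpm gene was at 3.35 and 4.94 with DMSO and 40.2 and 64.1 with TSA, and in TKO at 4.86 and 5.16, then 59.8 and 94.4, all in the unit CPM. It therefore showed the same excess of replicate 2 over replicate 1 with TSA as Brdt did. In all, 1800 genes had r above 0.9 with Brdt, against 16 with Brd2 and 3 with Brd3.

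For Brd2 the closest genes were Mdk, the growth factor midkine (r = 0.986), Ptpn6, a phosphatase gene (0.980), and Hnrnph3, an RNA-binding protein gene (0.961). Mdk was at 88.2 and 85.7 CPM with DMSO and 49.3 and 49.7 with TSA in wild type, and in TKO at 77.9 and 80.7, then 64.1 and 95.7 CPM. Like Brd2 it was lowest in wild type TSA and spread widely between the TKO TSA replicates. For Brd3, whose level hardly varied, the closest were 2010012O05Rik (0.953), A230072C01Rik (0.953) and BC052040 (0.942). Between the members themselves r was 0.540 for Brd2 and Brd3, -0.508 for Brd2 and Brdt, and -0.457 for Brd3 and Brdt.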

How the data were processed

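The deposited table holds raw read counts per gene for 8 RNA-seq libraries, with exon positions and summed exon length. Per the labels, DNase-treated total RNA went through rRNA depletion and a library kit that keeps the strand, and was sequenced paired-end. Per the submitters' processing notes, TopHat2 2.0.13, featureCounts 1.4.5-p1, edgeR 3.22.3 and mm10 were used. The annotation, the strand setting and the handling of multi-mapping reads are not given in the sources used here. The table names 27 genes as dates, which were left unmatched.

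From the counts, genes were filtered with filterByExpr (minimum count 10), scaled by TMM, and tested with edgeR 4.0.16 (quasi-likelihood, R 4.3.3, 4 group means, all 8 libraries), with Benjamini-Hochberg adjustment over 15822 genes and a call at 0.05. CPM and RPKM were computed from the TMM-scaled counts, and log2 CPM for correlations used a prior count of 2. The fit was tested on simulated data. DESeq2 1.42.0, other scalings, no filter, a replicate block and leaving out each library were alternatives.

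The members and gene lists were chosen with earlier results of these data known. Named genes are the members, the targeted genes, up to 5 called genes of a list per TSA comparison by size of change, neighbours called with at least a 2-fold change, and the 3 closest genes by correlation. Other neighbours, cell type markers and list genes named in the text were chosen after their values were seen. Where nothing says that replicates are separate cultures, p-values measure only the spread between these libraries. An exact permutation test of 2 against 2 libraries cannot reach 0.05. The floor of 3 counts covers counting error only, since reads without molecular identifiers are not independent molecules.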

Additional observations from a re-analysis of the deposited data

Results flagged for a closer look

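The effect of TSA differed between genotypes, by the test of the difference itself (TKO minus wild type, edgeR's quasi-likelihood test), for 3 of the 60 genes tested for it among those named by rule; none of the BET genes was among them. Dnmt3b, a targeted gene, had a difference of 1.33 (adjusted p = 0.00521), with -0.72 in wild type and 0.61 in TKO, in cells labelled Dnmt3b-/-. H2-Eb1, a class II gene near Brd2, had a difference of -1.79 (adjusted p = 0.0399), having risen by 2.76 in wild type and 0.97 in TKO. Nelfa had a difference of 0.98 (adjusted p = 0.0414), with 0.10 in wild type (adjusted p = 0.560) and 1.08 in TKO (adjusted p = 8.03e-05). The 60 do not hold every gene discussed above. By the same edgeR test Zmynd8 (0.67, adjusted p = 0.0371), Nes (1.44, adjusted p = 0.0369) and Nanos3 (-1.90, adjusted p = 0.0394), named outside that rule, also differed.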

How the results depend on the processing

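With 2 libraries per group the intervals are wide, and for Brdt the 24 to 35 counts per DMSO library limit the precision of its fold change. Brdt's rise with TSA passed the threshold under every alternative run, with log2 values of 3.16 to 3.81 in wild type, 3.29 to 3.92 in TKO and 3.60 to 4.24 for both changes together when 1 library was left out. Brd2's fall in wild type was -0.44 to -0.37 on leaving out 1 library, and no longer passed with upper quartile factors (-0.25) or total counts alone (-0.20); these scalings turn 4266 higher and 4092 lower genes into 5365 and 2794, or 5809 and 2437. In TKO the same 2 scalings gave 5337 and 3787, or 5904 and 3268, in place of 4872 and 4412, and for both changes together total counts gave 6058 and 3548 in place of 5015 and 4778. Brd2 in TKO against wild type with TSA ranged from 0.16 to 0.44 on leaving out 1 library, and Brdt from 0.08 to 0.80. No Brd3 call changed.

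Replicate numbers do not establish pairs here (correlations of same-numbered deviations were 0.0673 to 0.325 over 2 numbers). With the replicate block, Brd2 (0.30, adjusted p = 0.0361) and Brdt (0.44, adjusted p = 0.0460) passed in TKO against wild type with TSA, and no other call of the 3 genes changed.

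Without division by exon length, the share of Brd2 was 82.2% in wild type DMSO, 80.9% in TKO DMSO and 76.3% in TKO TSA, and that of Brd3 was 17.4% (DMSO) and 19.7% (TSA) in wild type and 18.5% in TKO with DMSO.

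Over all genes, calls for the difference of TSA effects numbered 213, against 488 with no filter, 394 with DESeq2, 633 with the replicate block and 10 to 410 on leaving out 1 library. TKO against wild type gave 3220 calls with DMSO, and 1703, 1806 and 1458 without wild type DMSO replicate 1, TKO DMSO replicate 1 and TKO DMSO replicate 2. With TSA it gave 2910, and 941 and 1356 without wild type TSA replicate 1 and TKO TSA replicate 2.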
